A study of Mus musculus with 9 samples.

Results

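The 8 genes described here encode the slow, fast and cardiac isoforms of the troponin subunits: Tnni1, Tnni2 and Tnni3 (troponin I), Tnnt1, Tnnt3 and Tnnt2 (troponin T), and Tnnc1 and Tnnc2 (troponin C). They were taken by symbol from the 55471 gene IDs of the count table, and all 8 passed the filter on low counts that left 21809 genes for testing in 7 mice and 21735 in 9 mice. The RNA came from gastrocnemius muscle of mice labelled C57BL/6 at postnatal day 0 to 1, with 1 library per mouse. 5 mice were homozygous Shank3Δ11(-/-), lacking exon 11 of the scaffold gene Shank3 in all cells (KO1 to KO5), and 4 were Shank3(+/+) (WT1 to WT4). The Shank3Δ11(-/-) mice came from matings of heterozygous C57BL/6JRj mice, and the labels name no treatment. The study compared KO1, KO3 and KO5 with WT1 to WT4 and left out KO2 and KO4, so fits are given for those 7 mice first and for all 9 second, and the values of all mice are shown.

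Troponin is the calcium switch of striated muscle. Troponin C binds calcium, troponin I holds the actin filament in its blocked state until calcium arrives, and troponin T ties both to tropomyosin. Slow fibres use Tnni1, Tnnt1 and Tnnc1, fast fibres use Tnni2, Tnnt3 and Tnnc2, and the heart uses Tnni3, Tnnt2 and the same Tnnc1 as slow fibres; Tnnt2 is also made by embryonic and fetal skeletal muscle. Most of these genes lie in the genome as pairs of one troponin I and one troponin T gene.

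Library totals ranged from 26444372 counts in KO5 to 40471957 in KO4. Values are CPM (counts scaled to library size) after scaling with the trimmed mean of M-values, and differences are Shank3Δ11(-/-) minus Shank3(+/+) on the log2 scale. Markers of skeletal muscle fibres were high in each library, with summed levels between 53776 and 61844 CPM. KO5 stood apart by adipocyte markers, whose summed level was 1102 CPM against 184.9 to 403 CPM in the other 8 mice, KO4 by cartilage markers, with 200.4 CPM against 34.9 to 68.0 CPM in the others, and KO1 by erythroid markers, with 3366 CPM against 701 to 1286 CPM. Shank3 itself read 25.8 to 35.1 CPM in Shank3Δ11(-/-) and 32.5 to 38.5 CPM in Shank3(+/+) mice, a count over the whole gene that does not check the loss of 1 exon. The level of Xist, the RNA made from the inactive X chromosome, split the mice into KO3, KO5, WT3 and WT4 (619 CPM or more) and the other 5 (3.23 CPM or less), so both classes occurred in both genotypes.

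In GENCODE M21 (mm10), Tnni1 (chr1:135779434-135810989, plus strand) and Tnnt2 (chr1:135836354-135852260, plus strand) are neighbours with Lad1 between them. Tnnt1 (chr7:4504570-4516382, minus strand) lies 1922 bases from Tnni3 (chr7:4518305-4524229, minus strand) with no protein-coding gene in between. Tnni2 (chr7:142441808-142444410, plus strand) and Tnnt3 (chr7:142498836-142516009, plus strand) flank Lsp1. The troponin C genes are unpaired, Tnnc1 at chr14:31208312-31211729 on the plus strand and Tnnc2 at chr2:164777161-164779967 on the minus strand. The troponin I and T genes that share a pair differed widely in level: in the same mouse, Tnnt1 read 500.4 to 855 CPM beside Tnni3 at 1.66 to 4.02 CPM. Lad1 read 0.533 to 1.01 CPM between Tnni1 and Tnnt2, and Lsp1 30.3 to 45.9 CPM between Tnni2 and Tnnt3.

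Sequences upstream of a start site were present in the RefSeq promoter table (GRCm38.p6) for 6 of the 8 genes, not for Tnni2 and Tnnt3. Those of the slow genes and of both cardiac genes are shown because the means of these genes were lower in Shank3Δ11(-/-) mice, with that of the fast gene Tnnc2 for comparison. Each is the longest stretch, of the 250 bases before the start, that no annotated exon covers, read 5′ to 3′ on the gene's strand. Capitals mark matches to the E-box CAGCTG, bound by myogenic factors, and to the MCAT motif CATTCC, bound by TEAD factors, on either strand.
Tnni1, chr1:135799171-135799401, plus strand: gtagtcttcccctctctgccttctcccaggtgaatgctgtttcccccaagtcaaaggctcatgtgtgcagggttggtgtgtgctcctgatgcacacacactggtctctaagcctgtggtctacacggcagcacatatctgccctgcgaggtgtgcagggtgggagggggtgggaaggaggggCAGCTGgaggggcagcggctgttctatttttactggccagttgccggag
Tnnc1, chr14:31208062-31208311, plus strand: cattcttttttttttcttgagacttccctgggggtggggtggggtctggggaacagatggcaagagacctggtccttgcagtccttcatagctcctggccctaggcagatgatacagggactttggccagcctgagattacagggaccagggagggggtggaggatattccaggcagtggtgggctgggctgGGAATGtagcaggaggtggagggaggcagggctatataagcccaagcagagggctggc
Tnnt1, chr7:4516005-4516225, minus strand: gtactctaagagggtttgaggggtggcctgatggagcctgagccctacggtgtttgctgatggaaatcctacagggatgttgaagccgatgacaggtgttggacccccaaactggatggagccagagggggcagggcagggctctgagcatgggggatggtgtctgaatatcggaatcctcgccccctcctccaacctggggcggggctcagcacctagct
Tnnt2, chr1:135836084-135836333, plus strand: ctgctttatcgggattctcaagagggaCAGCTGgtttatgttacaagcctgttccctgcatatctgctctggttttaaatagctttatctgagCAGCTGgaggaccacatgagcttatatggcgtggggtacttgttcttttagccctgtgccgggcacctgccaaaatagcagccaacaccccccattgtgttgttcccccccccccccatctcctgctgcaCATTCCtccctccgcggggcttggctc
Tnni3, chr7:4522529-4522694, minus strand: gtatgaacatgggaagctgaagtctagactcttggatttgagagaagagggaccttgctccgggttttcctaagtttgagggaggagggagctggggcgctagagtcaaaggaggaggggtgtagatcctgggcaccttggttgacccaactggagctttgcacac
Tnnc2, chr2:164779742-164779867, minus strand: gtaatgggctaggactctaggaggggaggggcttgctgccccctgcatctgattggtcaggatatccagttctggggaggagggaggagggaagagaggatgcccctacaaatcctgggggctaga

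Of the 250 bases before the start, an E-box occurred in Tnni1 (68 bases before the start) and at 2 places in Tnnt2 (223 and 157 bases before the start), and an MCAT motif in Tnnc1 (58 bases) and Tnnt2 (27 bases). RefSeq gives 2 starts for Tnni1, at 135799421 (used above) and 135799511, both inside the gene interval given earlier. The same E-box lies 158 bases before the latter start. Tnnt1 held TATAAA 30 bases before its start, in a part covered by an exon and not printed. Over all 32817 windows of this length, 13.0% held the E-box, 12.6% the MCAT motif and 12.4% TATAAA. No window of the 6 genes held the MEF2 or the CArG motif, which occurred in 2.92% and 1.47% of all windows. A match describes letters only. The 3 slow genes held none of the 5 motifs in common.

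The fast isoforms made up most of the troponin RNA of this neonatal muscle. The 8 genes held 1.18 to 1.40% of all counts per mouse, of which the 3 fast genes held 0.966 to 1.26% and the 3 slow genes 0.107 to 0.206%. Levels can be compared between genes only per length, here CPM per kilobase of the longest protein-coding transcript, as mean ± SD over the 9 mice. Tnnt3 was highest at 5889 ± 506, followed by Tnni2 at 3437 ± 413 and Tnnc2 at 2881 ± 368. Tnnt1 came next at 683 ± 117, then Tnnc1 at 517 ± 103, Tnni1 at 473 ± 99.5 and Tnnt2 at 327 ± 39.7. Tnni3 was last at 3.03 ± 0.836. The order of neighbours in this list held within each of the 9 mice except for Tnnc1 over Tnni1, which held in 8, while the ranges over mice overlapped for Tnni2 and Tnnc2, for Tnnt1 and Tnnc1, for Tnnc1 and Tnni1, and for Tnni1 and Tnnt2. Per kilobase of all annotated exon bases, Tnnc2 came before Tnni2, and Tnnc1 before Tnnt1 (in 8 of 9 mice), so these places depend on the length used. Summed by subunit on the transcript scale, troponin T was 1.57 to 1.90 times troponin I, and troponin C was 0.806 to 0.915 times troponin I.

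**Figure D1:**
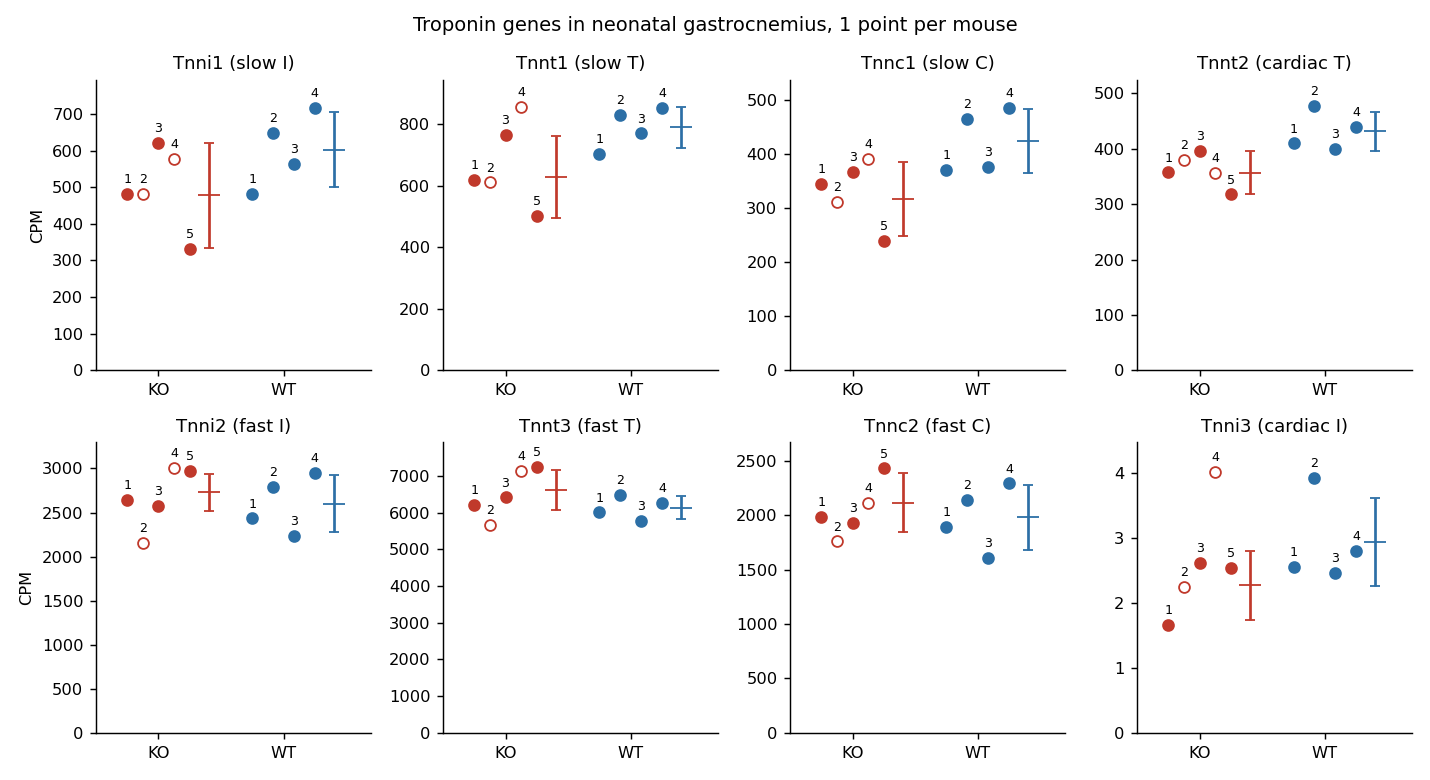
Levels of the 8 troponin genes in CPM (vertical axes from 0, a different scale per gene) for Shank3Δ11(-/-) mice (KO, red) and Shank3(+/+) mice (WT, blue), with 1 numbered point per mouse, open points for KO2 and KO4, and a bar for the mean ± SD of the filled points. KO5 is lowest for Tnni1, Tnnt1, Tnnc1 and Tnnt2, and all KO points for Tnnt2 lie at or below 396 CPM while all WT points lie at or above 399 CPM.

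Among the slow isoforms, the mean of Shank3Δ11(-/-) mice was lower for each gene, with KO5 as the lowest mouse each time. Tnnc1, which encodes the calcium-binding subunit of slow and cardiac muscle, read 345 CPM in KO1, 312 in KO2, 368 in KO3, 391 in KO4 and 239 in KO5, against 370.4, 466, 377 and 486 CPM in WT1 to WT4. In the 7 mice of the comparison each Shank3Δ11(-/-) mouse lay below each Shank3(+/+) mouse, though KO3 and WT1 differed by little, and with KO4 the groups overlapped. The group means were 317 ± 68.5 CPM (SD, n = 3) and 425 ± 59.7 CPM (n = 4). The fitted difference was -0.43 ± 0.17 (SE), with an unadjusted p of 0.0261 and an adjusted p of 1.00 in edgeR's quasi-likelihood test over all genes. The 2-sided exact permutation test gave p = 0.0571, where the smallest p possible with 3 and 4 mice is 0.0286. With 9 mice the difference was -0.36 ± 0.14 (unadjusted p 0.0263, adjusted p 1.00, exact permutation p = 0.0635).

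Tnnt1, the slow troponin T whose loss causes a nemaline myopathy, read 617, 610.3, 765, 855 and 500.4 CPM in KO1 to KO5 and 704, 831, 769.9 and 853 CPM in WT1 to WT4. The groups overlapped, since KO3 lay within the Shank3(+/+) range and KO4 just above it, while KO1, KO2 and KO5 lay below it. The fitted difference in 7 mice was -0.34 ± 0.15, with an unadjusted p of 0.0457 and an adjusted p of 1.00 in edgeR, and an exact permutation p of 0.114. With 9 mice it was -0.24 ± 0.14 (unadjusted p 0.124).

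Tnni1, the slow troponin I, which the fetal heart also makes, read 482, 481, 619.9, 577 and 331 CPM in KO1 to KO5 and 483, 649, 563 and 716 CPM in WT1 to WT4. The groups overlapped widely, and KO5 alone was far below the lowest Shank3(+/+) mouse. The fitted difference was -0.35 ± 0.21 in 7 mice (unadjusted p 0.121, exact permutation p = 0.2) and -0.28 ± 0.17 in 9 mice (unadjusted p 0.130), with adjusted p-values of 1.00 in edgeR.

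The groups overlapped for each of the fast isoforms, in 7 and in 9 mice. Tnnt3, the fast troponin T and the most abundant member, read 6201, 5672, 6417, 7127 and 7249 CPM in KO1 to KO5 and 6009, 6485, 5765 and 6267 CPM in WT1 to WT4. KO4 and KO5 were above all Shank3(+/+) mice, and KO2 was below them. The fitted difference was 0.10 ± 0.12 (unadjusted p 0.412 in edgeR, exact permutation p = 0.229) in 7 mice and 0.09 ± 0.10 (unadjusted p 0.399) in 9.

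Tnni2, the fast troponin I, read 2645, 2159.9, 2573, 3009 and 2968 CPM in KO1 to KO5 and 2434, 2792, 2232 and 2945 CPM in WT1 to WT4. Its fitted difference was 0.06 ± 0.13 (unadjusted p 0.663) in 7 mice and 0.04 ± 0.12 (unadjusted p 0.763) in 9. Tnnc2, the fast troponin C, read 1988, 1759.8, 1931, 2115 and 2430.2 CPM in KO1 to KO5 and 1893, 2137, 1606 and 2293 CPM in WT1 to WT4, with a fitted difference of 0.09 ± 0.15 (unadjusted p 0.583) in 7 mice and 0.04 ± 0.13 (unadjusted p 0.731) in 9. For both genes the groups overlapped over most of their range, and without KO5 the fitted difference took the opposite sign, at -0.01 ± 0.15 for Tnni2 and -0.03 ± 0.16 for Tnnc2.

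The cardiac isoforms were present at very different levels. Tnnt2, the troponin T of the heart and of embryonic skeletal muscle, read 357, 381, 396, 357 and 318 CPM in KO1 to KO5 and 409.7, 478, 399 and 440.0 CPM in WT1 to WT4. It was the only member whose groups did not overlap in all 9 mice, with KO3 just under WT3. The group means were 357 ± 39.4 CPM (SD, n = 3) or 362 ± 29.8 CPM (n = 5) in Shank3Δ11(-/-) and 432 ± 35.2 CPM (n = 4) in Shank3(+/+). The fitted difference was -0.28 ± 0.12 in 7 mice (unadjusted p 0.0358, adjusted p 1.00 in edgeR, exact permutation p = 0.0286, the smallest possible) and -0.25 ± 0.09 in 9 mice (unadjusted p 0.0189, adjusted p 1.00, exact permutation p = 0.0159, where 0.00794 is the smallest possible).

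Tnni3, the troponin I of the adult heart, read 1.66, 2.24, 2.61, 4.02 and 2.54 CPM in KO1 to KO5 and 2.56, 3.93, 2.46 and 2.80 CPM in WT1 to WT4. These are 53 to 153 counts per mouse, so counting error weighed more here than for the other members, which had at least 6301 counts each. The groups overlapped, and the fitted difference was -0.38 ± 0.24 (unadjusted p 0.149) in 7 mice and -0.16 ± 0.24 (unadjusted p 0.517) in 9. In 7 mice it was -0.20 without KO1 and -0.21 without WT2, and in 9 mice it was 0.01 without WT2. Tnnt2 exceeded Tnni3 by 88.8 to 215 times in CPM not corrected for length. The ratio of their means was 108 per kilobase of the longest coding transcript and 37.9 per kilobase of all exon bases, so its size depends on the length used. Of 6 cardiomyocyte markers, Nppa, Myl7, Nkx2-5, Gata4 and Tnni3k each stayed at 0.564 CPM or less in all mice, and Nkx2-5 had no count in KO1, KO2, KO3, KO5 and WT3, so that the summed level of the list (138 to 301 CPM) was nearly all Myh6.

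In total, 3 of the 8 members (Tnnt1, Tnnc1 and Tnnt2) passed an unadjusted p of 0.05 in 7 mice, all lower in Shank3Δ11(-/-), against 2.08% of all genes tested and 0.917% in that direction. With 9 mice it was 2 of 8 (Tnnc1 and Tnnt2), against 2.03% of all genes. With the replicate number as a factor in the 7-mouse fit, which compares only KO1 with WT1 and KO3 with WT3, 0 members passed. The groups did not overlap for 2 of 8 members in 7 mice (2.84% of all genes, 1.3% with the Shank3Δ11(-/-) mice lower) and for 1 of 8 in 9 mice (0.686%, and 0.363% in that direction). At the study's criterion of p below 0.05 with an FDR below 25%, edgeR called 0 members and 0 genes (0%) in either set of mice, where 453 and 442 genes had an unadjusted p below 0.05. DESeq2 called 6 genes in 7 mice, none of them a troponin, and limma-voom called 0. The paper, by contrast, reports differentially expressed genes at this criterion from its own limma analysis. In bulk RNA, fewer slow fibres and less slow troponin RNA per fibre cannot be told apart.

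**Figure D2:**
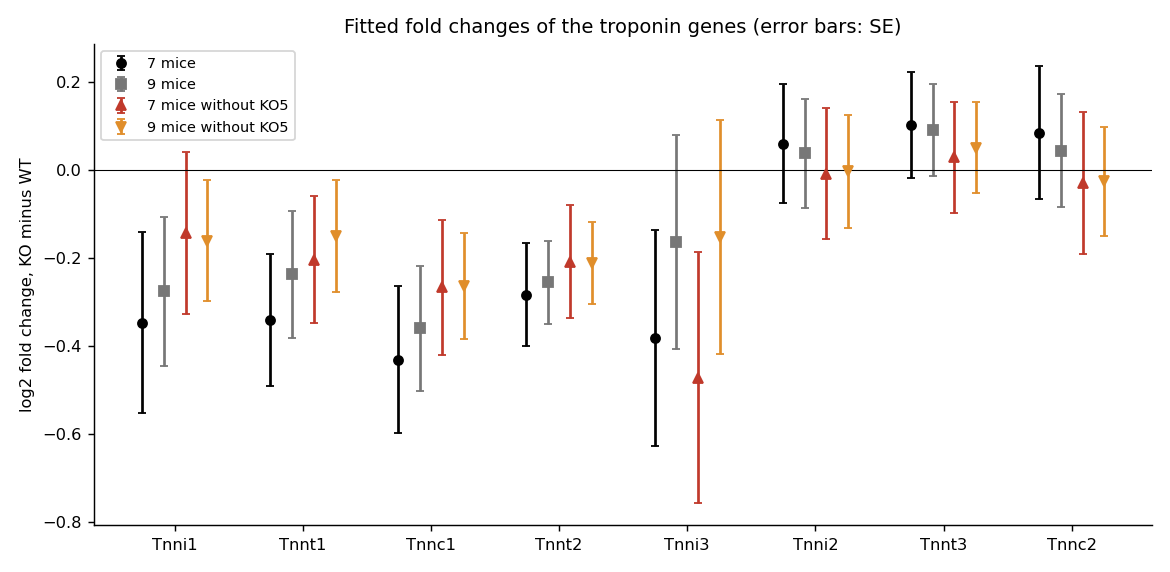
Fitted log2 fold change of each troponin gene, Shank3Δ11(-/-) minus Shank3(+/+), with its standard error as a bar, in the 7 mice of the comparison (black circles), in all 9 mice (grey squares) and in both sets without KO5 (red and orange triangles). The estimates of Tnni1, Tnnt1, Tnnc1 and Tnnt2 lie closer to 0 without KO5 but stay below it, while those of Tnni2 and Tnnc2 move from above 0 to just below it.

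KO5 set much of the size of these differences. Without it, the fitted difference in the remaining 6 mice was -0.14 ± 0.18 for Tnni1, -0.20 ± 0.14 for Tnnt1, -0.27 ± 0.15 for Tnnc1 and -0.21 ± 0.13 for Tnnt2, and none of the 8 genes had an unadjusted p below 0.05. The same count of 0 was reached in the 7-mouse set without WT2 and without WT4, and without KO1 it was 1 (Tnnc1). Without KO3 it was 4, with Tnni1 added to Tnnt1, Tnnc1 and Tnnt2. With KO5 left out of the 9 mice, Tnnc1 stood at -0.26 ± 0.12 (unadjusted p 0.0495) and Tnnt2 at -0.21 ± 0.09 (unadjusted p 0.0460), both with adjusted p-values of 1.00 in edgeR. With WT2 left out of the 9 mice neither passed (unadjusted p 0.0713 and 0.0691), and Tnnc1 did not pass with KO2 or WT4 left out of the 9 (unadjusted p 0.0520 and 0.0842). The adipocyte markers that were high in KO5 were Adipoq (78.7 CPM against 9.02 CPM or less in the others), Cfd (145 against 9.02 or less), Plin1 (33.7 against 4.42 or less) and Fabp4 (844 against 403 or less). Their part in the troponin values was not tested. Within the mice of low Xist level, the ratio of group means of Tnnc1 was -0.26 (3 against 2 mice) and that of Tnnt2 -0.28 on the log2 scale, and within those of high Xist level -0.51 and -0.23 (2 against 2 mice), with KO5 in the latter class. The group means of both genes were thus lower in Shank3Δ11(-/-) in both classes. Tnnc1 overlapped between genotypes in the low class (KO4 391, WT1 370.4 CPM) but not in the high class, and Tnnt2 overlapped in neither. Both genes were picked for their difference over these same mice, so the split is no separate check.

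The isoform shares set each gene against the others of its subunit in the same mouse, so they do not depend on library scaling. In CPM a longer transcript weighs more, so these shares compare mice and not amounts of the isoforms. Of troponin I, the slow gene Tnni1 held 15.4, 18.2, 19.4, 16.1 and 10.03% in KO1 to KO5 and 16.5, 18.8, 20.1 and 19.5% in WT1 to WT4. The means were 14.9 ± 4.70% (SD, n = 3), or 15.8 ± 3.61% with 5 mice, and 18.8 ± 1.57% (n = 4), and the groups overlapped. In 7 mice the means differed by -3.82 percentage points, and by -1.36 without KO5. The cardiac gene Tnni3 held 0.0531 to 0.114% of troponin I over the 9 mice. Per kilobase, the Tnni1 share was 6.93 to 14.4% over the 9 mice by the longest coding transcript and 4.43 to 9.48% by all exon bases.

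Of troponin T, the slow gene Tnnt1 held 8.60, 9.16, 10.1, 10.3 and 6.20% in KO1 to KO5 and 9.88, 10.7, 11.1 and 11.3% in WT1 to WT4, and the groups overlapped through KO3 and KO4. The cardiac gene Tnnt2 held 4.98, 5.71, 5.23, 4.28 and 3.94% in KO1 to KO5 and 5.75, 6.13, 5.76 and 5.82% in WT1 to WT4. Each Shank3Δ11(-/-) mouse was thus below each Shank3(+/+) mouse for the Tnnt2 share, KO2 by a narrow margin, with means of 4.83 ± 0.718% (n = 5) and 5.87 ± 0.179% (n = 4). The share of fast Tnnt3 was the complement of Tnnt1 and Tnnt2 together, so it is no separate observation. It was 84.7 to 89.9% in Shank3Δ11(-/-) and 82.9 to 84.4% in Shank3(+/+), without overlap, though KO3 and WT1 differed by little. Per kilobase of the longest coding transcript, Tnnt2 held 3.55 to 5.54% and Tnnt1 6.34 to 11.5% over the 9 mice. Per kilobase of all exon bases they held 0.845 to 1.36% and 4.68 to 8.79%, and on that scale the Tnnt3 shares overlapped between genotypes, while those of Tnnt2 did not.

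Of troponin C, slow Tnnc1 held 14.8, 15.0, 16.0, 15.6 and 8.97% in KO1 to KO5 and 16.4, 17.9, 18.999 and 17.5% in WT1 to WT4. The groups did not overlap in 9 mice, with KO3 and WT1 next to each other, and the means were 14.1 ± 2.90% (n = 5), or 13.2 ± 3.76% in the 3 mice of the comparison, and 17.7 ± 1.09% (n = 4). In 7 mice the means differed by -4.44 percentage points, and by -2.30 without KO5. Per kilobase of the longest coding transcript the Tnnc1 share was 8.73 to 15.6% in Shank3Δ11(-/-) and 16.0 to 18.5% in Shank3(+/+), and per kilobase of all exon bases 7.04 to 12.8% and 13.1 to 15.3%. With only 2 genes in this subunit, the order of the mice is the same on each of these scales. These shares are combinations of the members' own values and carry no test of their own.

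**Figure D3:**
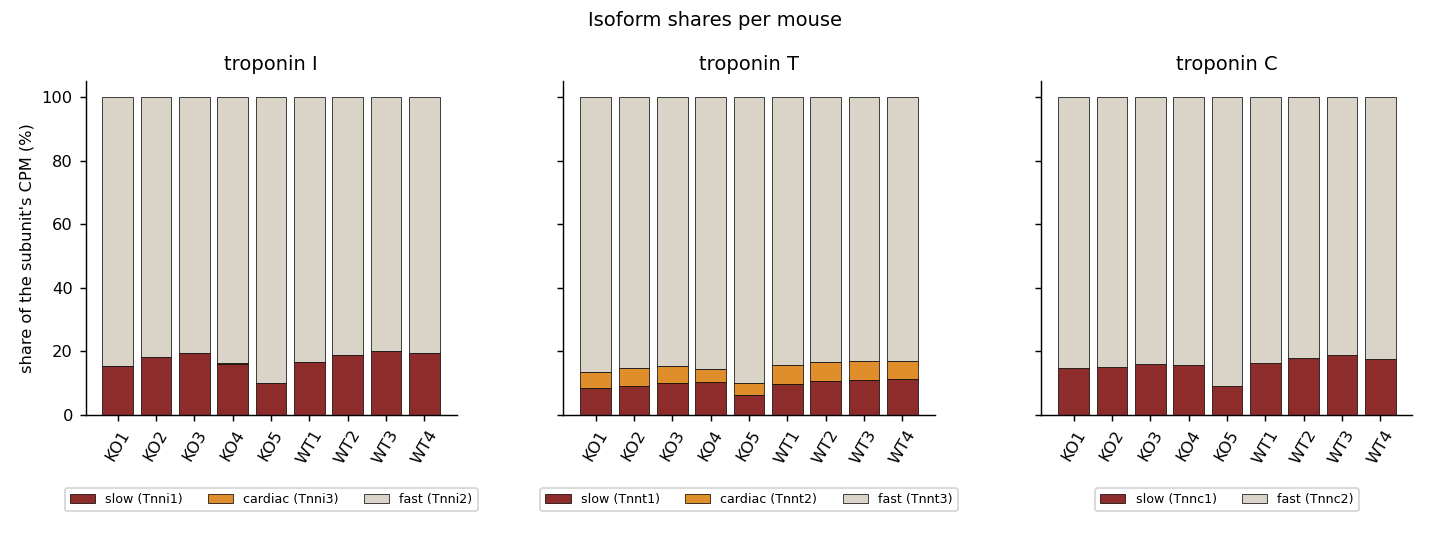
Share of each subunit's CPM held by its slow (dark red), cardiac (orange) and fast (grey) gene in each of the 9 mice, as stacked bars that sum to 100% per subunit. The slow share of KO5 is the lowest for each subunit, at 10.03% of troponin I, 6.20% of troponin T and 8.97% of troponin C.

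As a log2 ratio of slow to fast gene, troponin C averaged -2.64 ± 0.40 (SD, n = 5) in Shank3Δ11(-/-) and -2.22 ± 0.11 (n = 4) in Shank3(+/+) mice, a difference of -0.42 that was -0.24 without KO5. For troponin T the difference was -0.35 with 5 Shank3Δ11(-/-) mice and -0.21 without KO5, and for troponin I -0.33 and -0.15. In CPM not corrected for length, which serves to compare mice and not genes, the ratio of fast to slow gene in KO5 was 8.97 for troponin I, 14.5 for troponin T and 10.2 for troponin C, where the next highest mouse reached 5.49, 10.05 and 5.77. The difference had the same sign for the 3 subunits with and without KO5, although the 3 ratios come from the same mice and are not independent of each other.

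The members moved together within their fibre type class. Over the 9 mice, the 3 pairs of slow genes correlated in log2 CPM with Pearson's r of 0.93 to 0.95 and Spearman's rho of 0.87 to 0.93, and the 3 pairs of fast genes with r of 0.81 to 0.92 and rho of 0.83 to 0.90. By 2-sided exact permutation, the p-values adjusted over all 28 pairs were at most 0.0357 for r and at most 0.0386 for rho in these 6 pairs. Leaving out the 2 mice farthest from the median, r was 0.76 to 0.85 for the slow and 0.76 to 0.86 for the fast pairs. Tnnt2 gave r of 0.80 to Tnni1, 0.72 to Tnnt1 and 0.86 to Tnnc1 (adjusted exact permutation p 0.0366, 0.0887 and 0.0198) and rho of 0.70, 0.45 and 0.70 (adjusted exact permutation p 0.110, 0.429 and 0.110). Without the 2 farthest mice these r were 0.54, 0.46 and 0.71. Tnni3 gave r of 0.42, 0.62 and 0.46 with Tnni1, Tnnt1 and Tnnc1 (adjusted exact permutation p 0.483, 0.215 and 0.443) and rho of 0.73, 0.78 and 0.72 (adjusted exact permutation p 0.109, 0.0689 and 0.110), and its r were 0.72, 0.87 and 0.76 without the 2 farthest mice. The cardiac genes did not pass the adjusted threshold by rho with any slow gene.

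The 9 pairs of a slow and a fast gene gave r between -0.24 and 0.15 and rho between 0.10 and 0.38, with adjusted exact permutation p-values of at least 0.547. Pearson's r depended on KO5: without it, all 9 pairs had r between 0.45 and 0.71, with no p or rho computed. KO5 combined the lowest summed slow level (1071 CPM) with the highest summed fast level (12647 CPM) of the 9 mice. The other 8 mice had summed slow levels of 1403 to 2054 CPM and summed fast levels of 9592 to 12251 CPM.

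**Figure D4:**
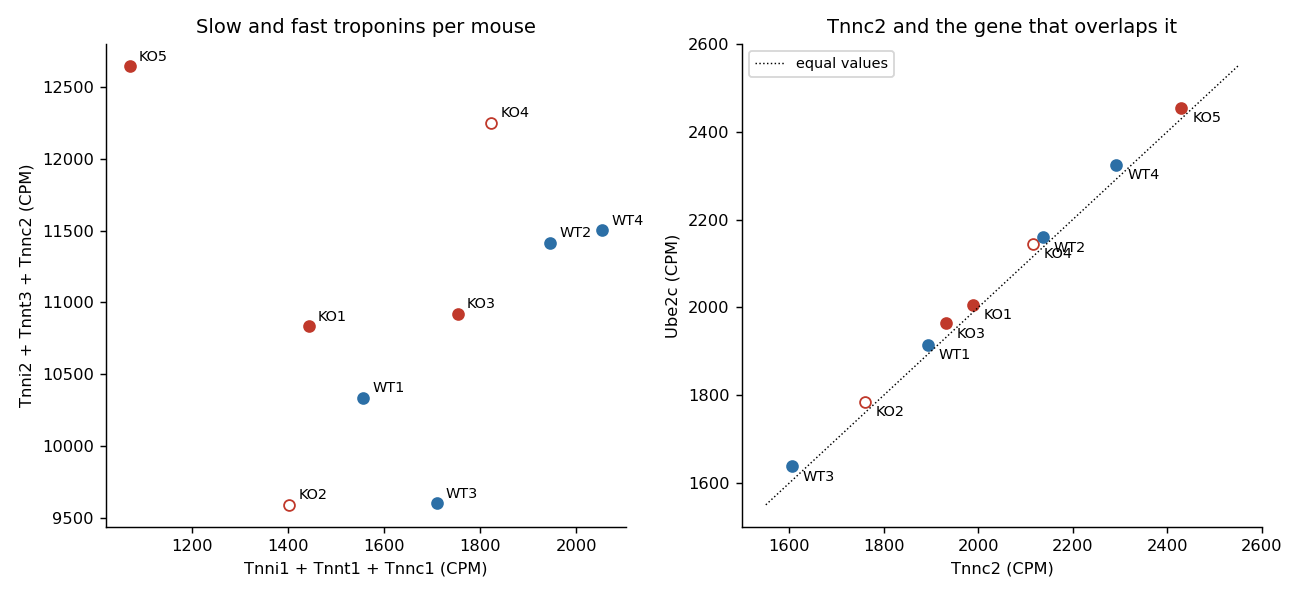
Left, summed CPM of the 3 slow troponin genes (horizontal) against that of the 3 fast genes (vertical), 1 point per mouse, Shank3Δ11(-/-) in red (open for KO2 and KO4) and Shank3(+/+) in blue; KO5 lies alone at 1071 CPM slow and 12647 CPM fast. Right, CPM of Tnnc2 against CPM of Ube2c in the same mice with a dotted line of equal values, above which the 9 mice lie by 18.0 to 32.6 CPM; the axes do not start at 0.

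The genes most like each class were searched among 21727 genes by Pearson's r over the 9 mice, as a description. Nearest to the mean of the slow genes were Myl6b (r = 0.98) and Myl3 (0.96), light chains of slow myosin, with Bex1 (0.97), Saxo2 (0.95) and the pseudogene Gm18561 (0.97). Nearest to the mean of the fast genes was Mylpf (r = 0.99), the regulatory light chain of fast myosin, followed by the pseudogene Gm14017 (0.98), Ndufa4 (0.97), Nme2 (0.97) and Abhd11 (0.96). The genes nearest to Tnnt2 were Gm37653 (0.96), Sct (0.91), Hyal3 (0.91), Celsr3 (0.91) and Rgs16 (0.90), of which 3 had means below 1 CPM. Tnni3 was nearest to Tmem178 (0.95), Fam81a (0.95), Gstt3 (0.93), Map4k1 (0.91) and Gm3752 (0.90). These 9 values share library depth and tissue make-up, and the likeness carries no test.

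The value of Tnnc2 was nearly matched by that of an overlapping gene. Ube2c, which encodes a ubiquitin-conjugating enzyme of mitosis, lies on the opposite strand at chr2:164769898-164778822 and shares 592 of the annotated exon bases of Tnnc2, 74% of them. Ube2c read 2006, 1785, 1963, 2145 and 2455 CPM in KO1 to KO5 and 1915, 2159.7, 1638 and 2324 CPM in WT1 to WT4. That was 101 to 102% of the Tnnc2 value in each mouse, with r = 1.00 between the pair. The other 8 mitosis genes examined, Cdc20, Ccnb1, Cdk1, Top2a, Mki67, Plk1, Aurka and Birc5, read 9.05 to 194 CPM and had r of -0.46 to 0.38 with Tnnc2. What remained after subtracting Tnnc2 from Ube2c was 18.0 to 32.6 CPM, and that remainder had r of 0.77 to 0.92 over the 9 mice with each of those 8 genes. The mitosis genes were chosen after the Ube2c value was seen. So these counts give no separate level for Ube2c, and reads of the shared bases cannot be assigned to one gene from them.

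The other overlaps were small or held no exon bases in common. Nisch spans Tnnc1 on the opposite strand with 0 shared exon bases and read 353 to 444 CPM (r = 0.25 with Tnnc1). Prr33 spans the start of Tnnt3 with 0 shared exon bases at 16.7 to 25.6 CPM (r = -0.63). Dnaaf3 shares 86 exon bases, 4.17%, with Tnni3 on the same strand and read 0.769 to 1.74 CPM, which is of the same order as Tnni3 itself.

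The other genes of the contractile program were described by lists, next to all genes tested in 7 mice, of which 52.2% had lower means in Shank3Δ11(-/-), 2.08% passed an unadjusted p of 0.05 and the median difference was -0.01. The lists were chosen with earlier results of these data known, so their counts are a description only. Of 14 slow fibre genes, 12 had lower and 2 had higher means in Shank3Δ11(-/-), with a median of -0.24 in 7 mice that was -0.19 without KO5 and -0.16 to -0.35 over all single mice left out (WT3 and KO1). 2 passed an unadjusted p of 0.05, Myl6b at -0.53 ± 0.22 (p 0.0334) and Myl3 at -0.41 ± 0.16 (p 0.0253), both with adjusted p-values of 1.00 in edgeR. Myl3, the essential light chain of slow and ventricular myosin, read 188, 209, 222, 248 and 135 CPM in KO1 to KO5 and 221, 247, 227 and 265 CPM in WT1 to WT4, so that the groups overlapped through KO3 and KO4 and it was lowest in KO5, as the slow troponins were. With 9 mice Myl6b stood at -0.37 ± 0.20 (p 0.0910) and Myl3 at -0.26 ± 0.15 (p 0.105), and 0 of the 14 passed. In 7 mice 0 passed without KO5 and 0 without WT4.

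Of 12 fast fibre genes, 9 had higher and 3 had lower means, with a median of 0.08 in 7 mice that was 0.05 without KO5 and 0.14 without WT4. 2 passed an unadjusted p of 0.05: Pvalb, a calcium buffer of mature fast fibres, at 1.23 ± 0.47 (p 0.0331), and Actn3, the fast Z-disc α-actinin, at 0.62 ± 0.26 (p 0.0413), with adjusted p-values of 1.00 in edgeR. Pvalb read 25.3, 25.9, 47.7, 119 and 103 CPM in KO1 to KO5 and 15.6, 22.9, 32.8 and 28.1 CPM in WT1 to WT4, so KO5 and, less so, KO3 lay above all Shank3(+/+) mice in the 7-mouse set, and KO4 was the highest of all 9. With 9 mice Pvalb stood at 1.37 ± 0.52 (p 0.0273) and Actn3 at 0.50 ± 0.22 (p 0.0455). In 7 mice 0 of the 12 passed without KO5, without WT1 or without WT2, and 1 passed without KO3 or without WT4.

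Of 14 cardiac genes, 8 passed the filter in 7 mice and 7 of these had lower means, with a median of -0.32 that was -0.07 without KO5 and -0.10 without WT4. Myh6, a myosin heavy chain of the atrium that is also made in some skeletal fibres, passed an unadjusted p of 0.05 at -0.64 ± 0.22 (p 0.0141, adjusted p 1.00 in edgeR) and read 254, 204, 141, 297 and 138 CPM in KO1 to KO5 and 217, 300.3, 293 and 289 CPM in WT1 to WT4. With 9 mice it stood at -0.41 ± 0.22 (p 0.0826), and 0 of the list passed in 9 mice or, in 7 mice, without KO5. Actc1, the cardiac actin that fetal skeletal muscle uses, read 2608 CPM in KO5 and 4452 to 6401 CPM in the other 8 mice, with a difference of -0.25 ± 0.26 (unadjusted p 0.344) in 7 mice and -0.23 ± 0.20 (unadjusted p 0.279) in 9. Its low value in KO5 ran with that of Tnnt2 and the slow troponins.

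Of 13 developmental muscle genes, 12 had lower means with a median of -0.12 in 7 mice, and 9 had lower means with a median of -0.13 in 9 mice. In 7 mice this median was -0.05 without WT2 and -0.20 without WT3. Myod1, a myogenic regulator, passed an unadjusted p of 0.05 at -0.41 ± 0.13 in 7 mice (p 0.0109, adjusted p 1.00 in edgeR) but not in 9, at -0.25 ± 0.21 (p 0.265), nor in 7 without KO5. It read 52.2, 83.6, 48.7, 35.5 and 38.6 CPM in KO1 to KO5 and 57.2, 68.2, 54.5 and 65.4 CPM in WT1 to WT4, so that KO2 lay above each Shank3(+/+) mouse and the other 4 below. KO5 had the lowest level of the embryonic myosin Myh3 (2095 CPM against 4174 to 5787 CPM in the others) and the highest of the perinatal myosin Myh8 (19521 CPM against 13569 to 17143 CPM). Of the 20 thin filament partner genes, 0 passed an unadjusted p of 0.05, with 11 lower and 9 higher means and a median of -0.01 that ranged from -0.07 without KO1 to 0.04 without KO3. Without KO1, 2 of them passed. Of the 20 regulators of fibre type and of troponin promoters, 0 passed, with 16 lower and 4 higher means (14 and 6 in 9 mice) and a median of -0.07 that was -0.03 without KO3 or KO5 and -0.12 without KO1. Tead1 stood at -0.04, Mef2c at -0.01 and Sox6 at 0.07. Acta1, the main skeletal actin, stood at 0.04, and the tropomyosins Tpm1 and Tpm2 at 0.02 and 0.06 in 7 mice. The slow fibre tropomyosin Tpm3, which is also in the slow fibre list, stood at -0.16 ± 0.10 (unadjusted p 0.128), with KO1, KO3 and KO5 below each Shank3(+/+) mouse (exact permutation p = 0.0286), and at -0.08 ± 0.10 (unadjusted p 0.415) in 9 mice, where KO4 was the highest. No list had a gene called at the study's criterion.

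**Figure D5:**
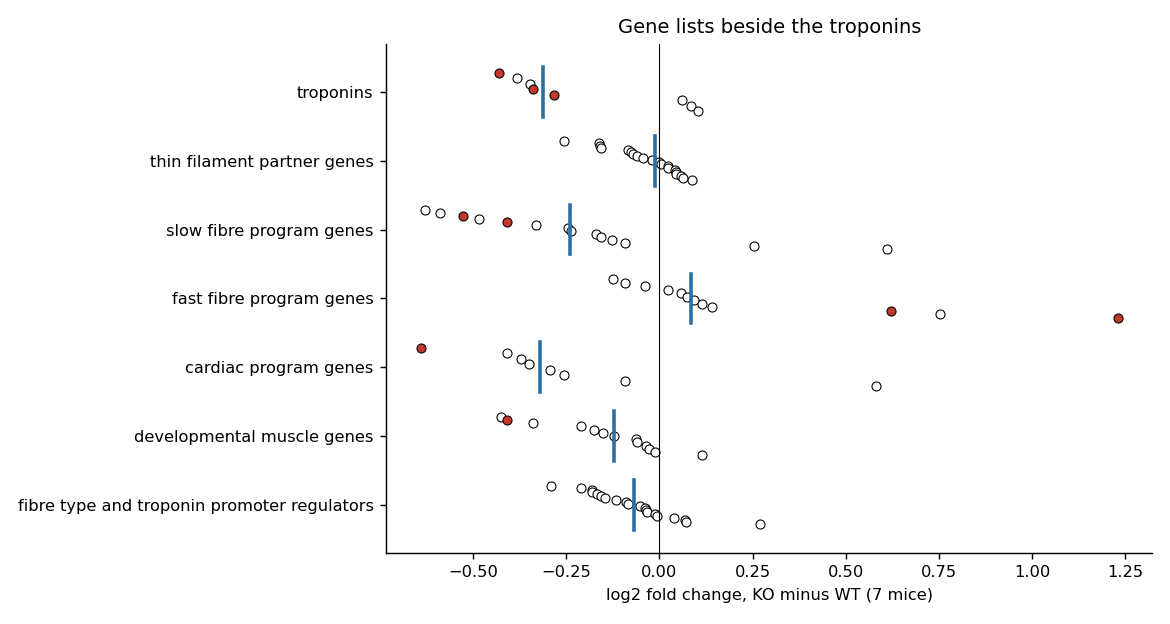
Fitted log2 fold change, Shank3Δ11(-/-) minus Shank3(+/+) in 7 mice, of the 8 troponins and of each tested gene of 6 lists (1 point per gene, red where the unadjusted p is below 0.05), with a blue line at the median of each list. The medians are -0.31 for the troponins, -0.24 for the slow and 0.08 for the fast fibre genes, -0.32 for the cardiac genes and -0.01 for the thin filament partners; that of the troponins was -0.17 without KO5 and -0.20 in 9 mice.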

How the data were processed

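Gastrocnemius RNA of 9 mice was sequenced, 1 library per mouse. The deposited values are the authors' counts of reads per Ensembl gene, without normalization: per the methods, reads were mapped with HISAT2 2.2.1 to mm10, concordant pairs were kept and counted with featureCounts 2.0.1. The sources used here do not give strandedness, annotation release or how reads that overlap several genes were treated. Symbols, positions and lengths came from GENCODE M21. The study left out KO2 and KO4 for insufficient reads; their totals here were 28211941 and 40471957 counts. The main fit used edgeR 4.0.16 (R 4.3.3): filterByExpr (minimum count 10, minimum total 15), TMM, robust quasi-likelihood test, Benjamini-Hochberg over all genes tested, run on 7 mice and repeated on 9. Exact permutation tests compared mean log2 CPM (prior count 2) over all 35 or 126 splits. Alternatives were limma 3.58.1, DESeq2 1.42.0, other scalings and filters. Results for some single genes were left out. The fitting code was tested on simulated data. Named genes were the 8 members, the 5 genes most alike per class, and up to 3 list members per direction with p below 0.05; others named were picked for their values or role. Members and lists were chosen with earlier results of these data known.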

Additional observations from a re-analysis of the deposited data

Results flagged for a closer look

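Both values were set apart by a test for a single distant mouse (Dixon's ratio of the gap to the range at the 95% level), applied to 32 groups of values, of which chance marks about 1 in 20. The slow share of troponin C in KO5 was 8.97%, against 14.8 to 16.0% in the other Shank3Δ11(-/-) mice, a gap of 0.825 of the group's range where 0.71 is the limit for 5 mice. The slow to fast log2 ratio of troponin C in KO5 was -3.34, against -2.53 to -2.39 in the others, a gap of 0.856 of the range. They are the same observation on 2 scales. KO5 is the library with the highest adipocyte markers and the smallest total, and their part in its troponin C values was not tested.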

How the results depend on the processing

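No troponin gene passed the study's criterion under any of the 28 alternatives fitted per gene. Tnnt1, Tnnc1 and Tnnt2 stayed lower and Tnnt3 higher in Shank3Δ11(-/-) under all 28, but with the replicate block in 7 mice Tnnt1 was -0.10 (p 0.389), Tnnc1 -0.07 (p 0.532) and Tnnt2 -0.11 (p 0.370). The block compares only mice that share a replicate number, in 7 mice KO1 with WT1 and KO3 with WT3. KO5 has no such partner, so it does not enter the block's differences. Signs reversed for other members. Tnni1 stood at 0.064 with the replicate block. Tnni2 stood at -0.12 with quantile normalization, -0.0078 without KO5 in 7 mice and -0.0027 in 9, and with 9 mice at -0.013 without KO4, -0.028 without WT3 and -0.0032 with the block. Tnnc2 stood at -0.029 without KO5 in 7 mice and -0.025 in 9, and with 9 mice at -0.044 without WT3 and -0.015 with the block. Tnni3 stood at 0.0098 with 9 mice without WT2. Leaving out 1 mouse gave differences of -0.58 to -0.14 for Tnni1, -0.51 to -0.15 for Tnnt1, -0.55 to -0.26 for Tnnc1, -0.36 to -0.20 for Tnnt2, -0.50 to 0.01 for Tnni3, -0.03 to 0.13 for Tnni2, 0.03 to 0.15 for Tnnt3 and -0.04 to 0.17 for Tnnc2. The number of troponin genes with an unadjusted p below 0.05, 3 in the main result, was 0 to 4 with 1 mouse left out (0 without KO5, WT2 or WT4 and 1 without KO1 in 7 mice; in 9 mice 0 without WT2 and 1 without KO2 or WT4). Whether the replicate numbers pair the mice is not known. In deviations from their group means, same-numbered mice correlated at 0.37, 0.05, 0.36 and 0.10, and differently numbered mice at -0.44 to 0.28. With the replicate block in 7 mice, 0 troponin genes and 844 genes had a p below 0.05 in edgeR and 9 genes were called (with 9 mice 1 troponin and 2 called genes).

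Genes called, 0 in the main result, numbered 1 without a filter and with the class of Xist level as a factor, 6 in DESeq2, and 0 to 15 with 1 mouse left out. Genes with a p below 0.05 numbered 972 without a filter and 224 to 968 with 1 mouse left out (745 with 9 mice without KO2 and 300 without KO5). The difference in the cardiac share of troponin T was -0.27 percentage points per kilobase of exon. With 9 mice, 0 slow fibre, 0 cardiac and 0 developmental genes passed a p of 0.05. With 1 mouse left out, 0 to 5 slow fibre, 0 to 2 fast fibre, 0 to 1 cardiac, 0 to 3 developmental and 0 to 2 thin filament genes passed. Causes were not tested.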
